A study of Mus musculus with 2 samples.

Results

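The 7 miRNA genes Mir200a, Mir200b, Mir200c, Mir141, Mir429, Mir203 and Mir205 were followed in embryonic mouse neural tube, the tissue that becomes brain and spinal cord. They were taken from the count files as the rows whose Ensembl identifier, without its version, carries one of these symbols in the GENCODE M21 annotation, and all 7 were found among 1973 counted miRNA genes. The study sequenced small RNA from neural tube of healthy B6NCrl embryos at embryonic day 12.5, male and female pooled. It holds 1 group of 2 biological replicates: 120 embryos were pooled for replicate 1 and 88 for replicate 2. Each value is therefore the average of a pool, no second tissue, age or genotype was compared, and the 2 libraries allow no exact test of an order below p = 0.5. Reads assigned to miRNA genes on the gene's own strand numbered 4802411 in replicate 1 and 4422853 in replicate 2. Levels are given as reads per 1000000 such reads (CPM).

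A miRNA is a short RNA cut from a hairpin precursor, and it lowers the output of messenger RNAs that pair with its seed, bases 2 to 8 from its 5′ end. The Mir200 family is known from epithelia, where it represses the transcription factors Zeb1 and Zeb2 and so holds cells in the epithelial state. Zeb proteins in turn repress the Mir200 genes. Mir205 acts beside the family on the Zeb factors and is typical of stratified epithelia, and Mir203 is known from epidermis, where it limits the proliferative state of progenitors.

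The Mir200 family falls into classes by seed, so the mature strands are shown with the seed in capitals. These are the strands for which each gene is best known, taken from RefSeq on GRCm38.p6, 5′ to 3′.
miR-200b-3p: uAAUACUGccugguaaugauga
miR-200c-3p: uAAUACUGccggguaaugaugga
miR-429-3p: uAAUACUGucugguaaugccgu
miR-200a-3p: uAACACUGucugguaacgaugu
miR-141-3p: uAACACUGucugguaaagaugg
miR-205-5p: uCCUUCAUuccaccggagucug
miR-203-3p: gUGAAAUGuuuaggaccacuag
Counted from 1 at the 5′ end, the seed classes differ by U4C from miR-200b-3p to miR-200a-3p. The first class holds miR-200b, miR-200c and miR-429, and the second holds miR-200a and miR-141. No other mature strand in the RefSeq table of mouse miRNAs carried either of these seeds, and those of miR-205-5p and miR-203-3p occurred once each. Within the classes, miR-200b-3p and miR-200c-3p matched at 20 of 22 positions, with U11G and A22G. miR-200a-3p and miR-141-3p also matched at 20 of 22, with C17A and U22G, and their longest common stretch was 16 bases. On the other arm, miR-200a-5p and miR-200b-5p share the seed AUCUUAC although their 3p seeds differ.

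The genes lie at 4 places in the genome (GRCm38, mm10). Mir200b (chr4:156055681-156055750), Mir200a (chr4:156054896-156054985) and Mir429 (chr4:156053905-156053987) follow each other on the minus strand within 1846 bases. Mir200b and Mir200a lie in introns of the noncoding gene Gm13648 and of the coding gene Ttll10, while Mir429 overlaps an exon of Gm13648 and lies in an intron of Ttll10. Mir200c (chr6:124718322-124718390) and Mir141 (chr6:124717914-124717985) span 477 bases on the minus strand, in an intron of the noncoding gene Gm15884, and Mir141 also overlaps an exon of Gm29008. Mir205 (chr1:193507463-193507530, minus strand) overlaps an exon of 4631405K08Rik, which RefSeq names Mir205hg. Mir203 (chr12:112130880-112130955, plus strand) lies in no other M21 gene. Each cluster thus carries genes of both seed classes.

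Each of the 7 genes had 10 reads or more in both libraries, which counts as detected here. In all, 371 of the 1973 genes were detected. Together the 7 genes held 0.219% of gene reads in replicate 1 (exact binomial 95% interval 0.215 to 0.224) and 0.225% in replicate 2 (0.221 to 0.230). Intervals cover counting error only. PCR copies were not marked by molecular identifiers, so the intervals may be too narrow even for counting error. In bulk tissue, fewer cells of a type and less RNA per cell cannot be told apart. Of the 7, 4 lay above the median of detected genes, which was 115 CPM, and their own median was 132 CPM.

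Mir203 had the most reads, 4817 in replicate 1 and 5297 in replicate 2. That is 1003 and 1198 CPM, or rank 89 and 81 among the counted genes. It made up 45.7% and 53.1% of the reads of the 7 genes. The level was above the upper quartile of detected genes, 871 CPM, in both libraries.

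Mir205 followed with 2366 and 2081 reads, or 493 CPM in replicate 1 and 471 CPM in replicate 2. Its mean of 482 ± 15.7 CPM (SD, n = 2) had the smallest spread of the 7 relative to its level. Among all counted genes it ranked 117 and 115. Mir203 exceeded Mir205 by 2.04 times in replicate 1 and 2.55 times in replicate 2.

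**Figure D1:**
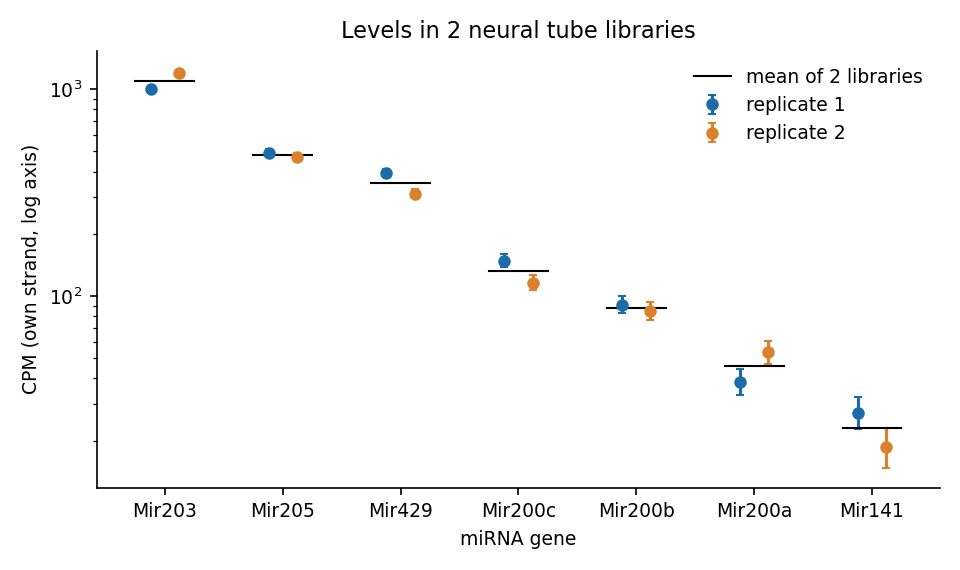
CPM of the 7 miRNA genes on a log axis in replicate 1 (blue) and replicate 2 (orange) of the neural tube, with exact Poisson 95% intervals as error bars and the mean of both libraries as a black line. Levels run from Mir203 at 1100 CPM down to Mir141 at 22.9 CPM, and no gene overlaps its neighbour in this order.

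In the chromosome 4 cluster, Mir429 led. It had 1888 reads in replicate 1 and 1383 in replicate 2, or 393 and 313 CPM. Mir200b, the first hairpin of the cluster in the direction of transcription, had 437 and 374 reads, or 91.0 and 84.6 CPM. Mir200a, which lies between them, had the fewest with 185 and 236 reads, or 38.5 and 53.4 CPM. The last hairpin thus had the most reads and the middle one the fewest in both libraries. Mir429 exceeded Mir200b by 4.01 ± 0.440 times and Mir200a by 8.03 ± 3.07 times (SD, n = 2).

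In the chromosome 6 cluster, Mir200c had 712 reads in replicate 1 and 514 in replicate 2, or 148 and 116 CPM. Mir141, 336 bases downstream, had 131 and 82 reads, or 27.3 and 18.5 CPM. Mir200c exceeded Mir141 by 5.44 times (95% interval 4.51 to 6.60) and 6.27 times (4.96 to 8.01), so the intervals of the libraries overlapped. In both clusters the genes of the AAUACUG class had more reads than their neighbour of the AACACUG class.

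**Figure D2:**
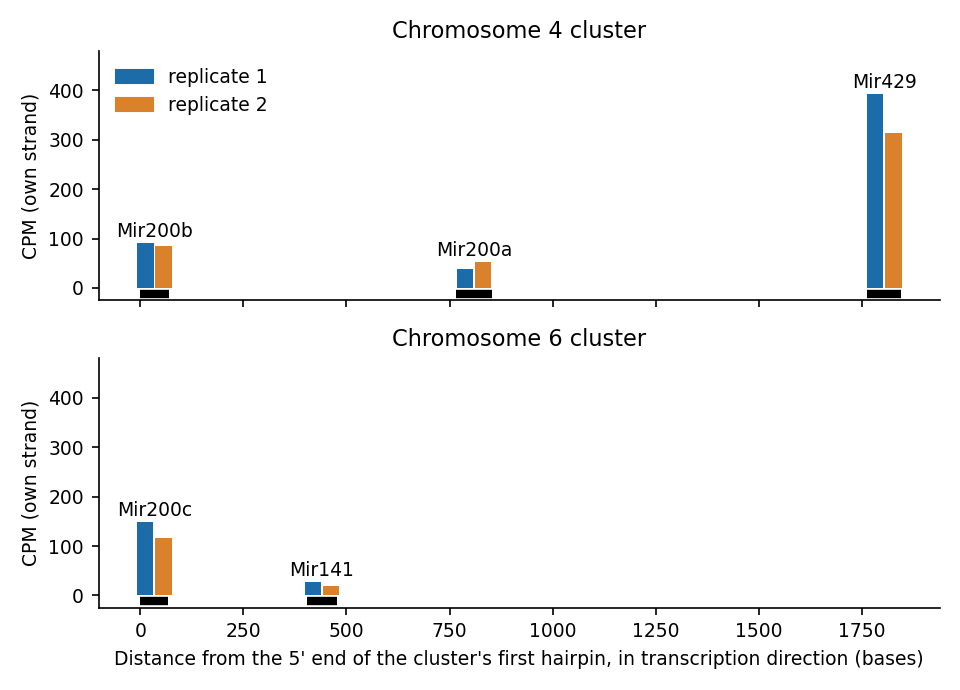
CPM of each gene (bars, replicate 1 in blue, replicate 2 in orange) against the distance from the start of its cluster in bases, in the direction of transcription, with hairpins as black blocks. Mir429, the last hairpin on chromosome 4, has the tallest bars at 393 and 313 CPM, and Mir141 on chromosome 6 the lowest at 27.3 and 18.5 CPM.

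Summed over genes, the chromosome 4 cluster had 523 CPM in replicate 1 and 451 CPM in replicate 2, and the chromosome 6 cluster had 176 and 135 CPM. Their ratio was 2.98 (2.75 to 3.22) in replicate 1 and 3.34 (3.05 to 3.67) in replicate 2, or 3.16 ± 0.259 (SD, n = 2). The AAUACUG class had 632 and 513 CPM, and the AACACUG class 65.8 and 71.9 CPM. The seed ratio was 9.61 (8.56 to 10.8) in replicate 1 and 7.14 (6.35 to 8.06) in replicate 2. The mean of 8.38 exceeded 1 by more than the SD of 1.75, and the counting intervals of the libraries did not overlap. Both ratios set 3 genes against 2, and Mir429 alone held 393 and 313 CPM of each larger sum. Gene counts hold both arms of a hairpin, so the seed ratio compares genes by class and not strands that carry the seed. On chromosome 4, Mir200b and Mir200a each lay below Mir200c of chromosome 6 in both libraries. Mir200b and Mir200c each exceeded Mir200a and Mir141. The excess of the chromosome 4 cluster thus rested on Mir429, while that of the AAUACUG class held for Mir200b and Mir200c too. The ratios without Mir429 were not computed.

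The order of the 7 genes was Mir203, Mir205, Mir429, Mir200c, Mir200b, Mir200a and Mir141, and it was the same in both libraries. In each of the 6 neighbouring pairs, the lower library of the higher gene exceeded the higher library of the lower gene, and the ratio exceeded 1 by more than its SD. The closest approach was between Mir205 and Mir429, 1.38 ± 0.178 times apart. The ratio of Mir200a to Mir141 had the largest relative spread of these, 1.41 (1.12 to 1.78) in replicate 1 and 2.88 (2.23 to 3.75) in replicate 2, for a mean of 2.15 ± 1.04 (SD, n = 2). A small-RNA read covers about one mature strand, so reads were not divided by hairpin length. How evenly different strands were captured was not measured, and the ratios compare reads.

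Ratios of reads within a library do not depend on how the libraries are scaled. Their intervals cover counting error and not the spread between pools. Of the 10 pairs among the 5 Mir200 genes, 6 had counting intervals that overlapped between the libraries. All 4 pairs with intervals apart included Mir200a, and Mir200a has 4 pairs. Over all 7 genes, intervals also lay apart in 5 of 6 pairs with Mir203 and in 4 of 6 pairs with Mir205. Mir429 exceeded Mir200a by 10.2 times (8.77 to 11.9) in replicate 1 and 5.86 times (5.10 to 6.76) in replicate 2. Mir200b exceeded it by 2.36 times (1.98 to 2.82) and 1.58 times (1.34 to 1.87). Mir429 and Mir200c, which lie on different chromosomes but share a seed, kept a ratio of 2.65 (2.43 to 2.89) and 2.69 (2.43 to 2.98). Mir205 and Mir200b, which share neither seed nor chromosome, had close ratios too, 5.41 (4.89 to 6.01) and 5.56 (4.98 to 6.23). Mir200a and Mir141 share a seed, and their ratios of 1.41 and 2.88 lay apart. The intervals of Mir141 are wide, and its ratio to Mir429 was 14.4 (12.1 to 17.3) and 16.9 (13.5 to 21.3).

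**Figure D3:**
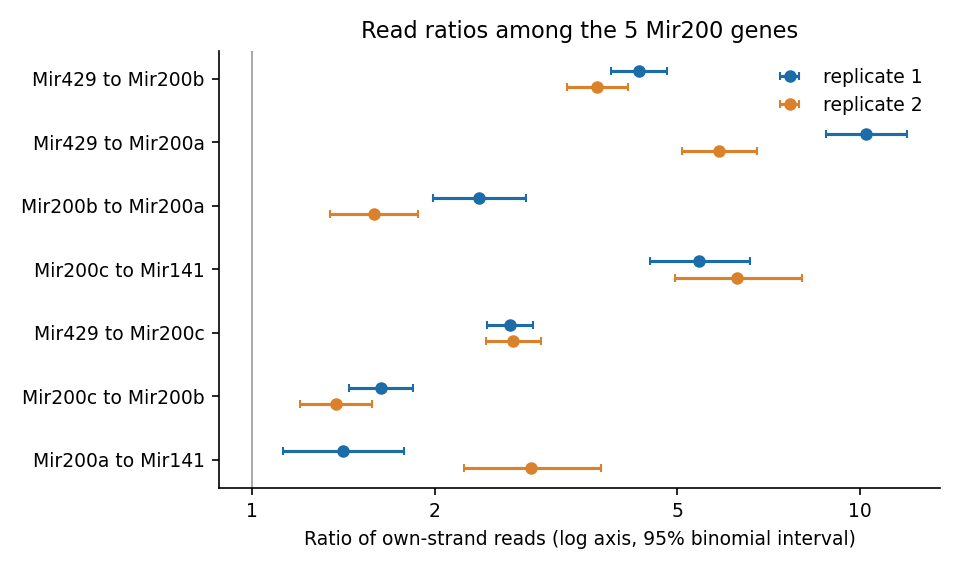
Ratio of own-strand reads (log axis) for 7 pairs of Mir200 genes in replicate 1 (blue) and replicate 2 (orange), with exact binomial 95% intervals. The libraries lie apart for the 3 pairs with Mir200a shown, such as Mir429 to Mir200a at 10.2 and 5.86, and nearly coincide for Mir429 to Mir200c at 2.65 and 2.69.

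Between the libraries, 5 of the 7 genes passed an exact binomial test (two-sided) in which TMM scaled the library totals, with p-values adjusted by Benjamini and Hochberg's method over 371 genes. This share has to be read against the background, since 53.1% of all detected genes passed. The test compares 2 libraries of one group and covers counting error only. The libraries also differed in unmapped reads, 27.3% of reads in replicate 1 and 19.96% in replicate 2, and in reads on no counted gene, 8.04% and 4.45%, whose part in these ratios was not tested. With a minimum difference of 2-fold, 0 of the 7 passed (5 at an unadjusted p under 0.05 without the fold minimum), against 2.7% of detected genes. The absolute log2 ratio had a median of 0.29 over the 7 genes and 0.24 over all detected genes.

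Mir429, Mir200c and Mir141 were higher in replicate 1, 3 of 7 genes against 26.1% of detected genes. Their log2 ratios were 0.29 for Mir429 (adjusted exact p = 3.85e-08), 0.31 for Mir200c (adjusted exact p = 0.000463) and 0.52 for Mir141 (adjusted exact p = 0.0229). Mir203 and Mir200a were lower in replicate 1, 2 of 7 against 27.0%. Mir203 had a log2 ratio of -0.29 (adjusted exact p = 5.48e-24) and Mir200a one of -0.51 (adjusted exact p = 0.000902). Mir200b and Mir205 did not pass, with log2 ratios of 0.07 and 0.03 and an adjusted exact p of 0.642 each. The ratio of Mir200a was negative, while those of Mir429 and Mir200b in its own cluster and of Mir141 with its seed were positive.

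The replicate error over all detected genes was a common coefficient of variation of 16.3%, estimated with edgeR. Expressed as log2 ratio between libraries, 1 SD is 0.33. This SD leaves out counting error, which widens the expected spread for genes with few reads. Mir141 and Mir200a, the 2 of the 7 genes with the fewest reads, lay outside 1 SD, as did 32.9% of all detected genes. The other 5 lay within it. For Mir141 the call was lost without a filter on low counts, at an adjusted exact p of 0.0606 over 736 genes. Its adjusted exact p lay between 0.0128 and 0.0606 over the alternatives.

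**Figure D4:**
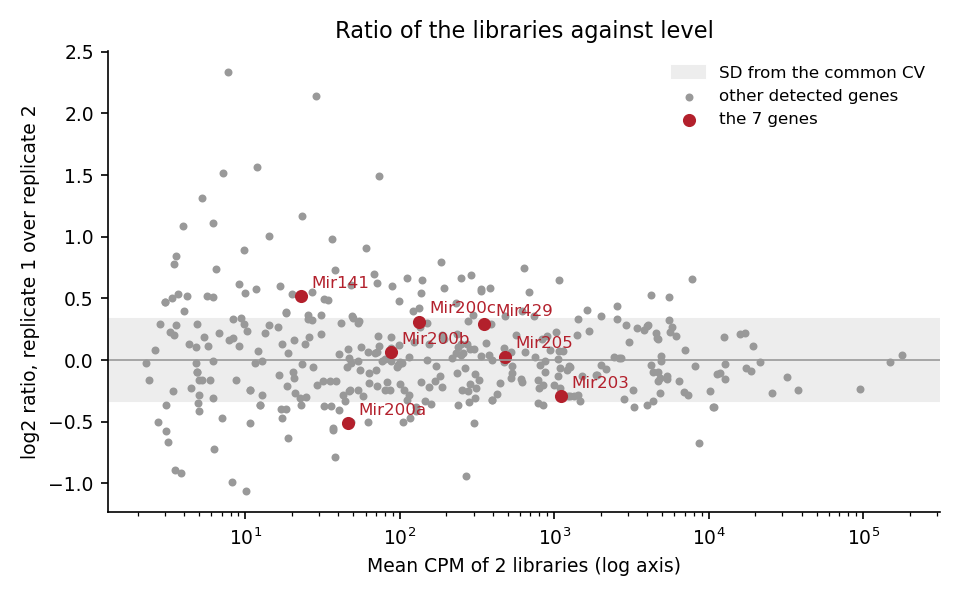
Log2 ratio of replicate 1 over replicate 2 against mean CPM (log axis) for the 371 detected miRNA genes, the 7 genes in red and the band of 1 SD expected from the common coefficient of variation in grey. Mir141 at 0.52 and Mir200a at -0.51 lie outside the band of 0.33 on opposite sides. The band leaves out counting error.

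Reads mapping to several places are in no gene's count, which matters where hairpins share sequence. Hairpins of the 1894 counted genes present in M21 were searched. The longest stretch shared with another hairpin was 17 bases, between Mir200a and Mir141, and 14 bases between Mir200b and Mir200c. It was 14 for Mir205, 12 for Mir429 and 11 for Mir203. Of all detected genes, 21.3% shared at least 20 bases. The rest of the genome was not searched. The hairpins are 68 to 90 bases long with a GC content of 48.7% to 55.1%.

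On level alone, the detected genes closest to each of the 7 were found by Euclidean distance of log2(CPM + 1) over the 2 libraries. Mir101b and Mir467e lay closest to Mir203, at distances of 0.06 and 0.14. Mir540 and Mir421 lay closest to Mir205, at 0.04 and 0.06. Among the Mir200 genes, Mir429 was closest to Mir186 and Mir455, Mir200c to Mir3099 and Mir672, and Mir200b to Mir377 and Mir5099. Mir200a was closest to Mir199a-2 and Mir362, and Mir141 to Mir3061 and Mir669e. The distance of Mir669e, 0.26, was the largest of these.

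Marker genes of the cell types the dissection could hold were set beside the tissue label. They cannot settle it, since genes of other tissues were detected too: 3 of 3 sensory, 6 of 7 mesenchyme, 3 of 3 blood and 2 of 5 striated muscle genes. In uniquely assigned reads, the sensory, endothelial and mesenchyme lists also had larger sums than the neural list. Of 13 counted neural genes, 11 were detected and none was at 0, against 371 detected of all 1973 counted genes. Mir219a-2 (5544 ± 1479 CPM), Mir137 (2809 ± 379 CPM) and Mir153 (807 ± 1.17 CPM; SD, n = 2) led this list. The 3 Mir124a genes, which share sequence among themselves, had few uniquely assigned reads, with means over both libraries of 9.71 CPM or less. Reads mapping to several places are in no list sum, so the sum of the neural list, which holds such gene copies, may be too low.

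Set beside other tissues, the 7 genes summed to 2194 CPM in replicate 1 and 2254 CPM in replicate 2. That is 0.213 ± 0.0272 times the neural list, at 11320 and 9700 CPM in uniquely assigned reads, which may understate that list. It is 0.101 ± 0.0203 times the sensory genes Mir183, Mir182 and Mir96, whose sum was 19094 and 26149 CPM and which are known from sensory ganglia and sense organs. It is 0.116 ± 0.0109 times the endothelial gene Mir126a and 0.138 ± 0.00965 times the 7 mesenchyme genes, of which 6 were detected and none was at 0. The mesenchyme list was led by Mir214, Mir143 and Mir140. The 7 genes exceeded the 5 striated muscle genes, of which 2 were detected, by 3.68 ± 1.45 times. Mir206 led that list, and Mir133a-1 and Mir133a-2, copies of one mature sequence, were at 0 in uniquely assigned reads. The 7 genes also exceeded the 3 blood genes Mir223, Mir451a and Mir144 by 8.09 ± 0.864 times. In none of these comparisons did the libraries of the lists overlap those of the 7 genes.

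The sums of these lists differed between the libraries in both directions. The sensory list and the 7 genes had the smaller sum in replicate 1, and for the 7 genes the intervals of the libraries overlapped (2152 to 2236 and 2210 to 2298 CPM). Mir203 decided this: without it, the other 6 genes summed to 1191 CPM (1160 to 1222) in replicate 1 and 1056 CPM (1026 to 1087) in replicate 2, and the 5 Mir200 genes to 698 and 585 CPM. Larger sums in replicate 1 were also found for the other epithelial genes (1054 against 969 CPM), the neural list (11320 against 9700 CPM), the endothelial gene (20304 against 18258 CPM), the mesenchyme list (16700 against 15540 CPM), the muscle list (825 against 479 CPM) and the blood list (293 against 259 CPM). The part of other cell types in the levels of the 7 genes was not tested.

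**Figure D5:**
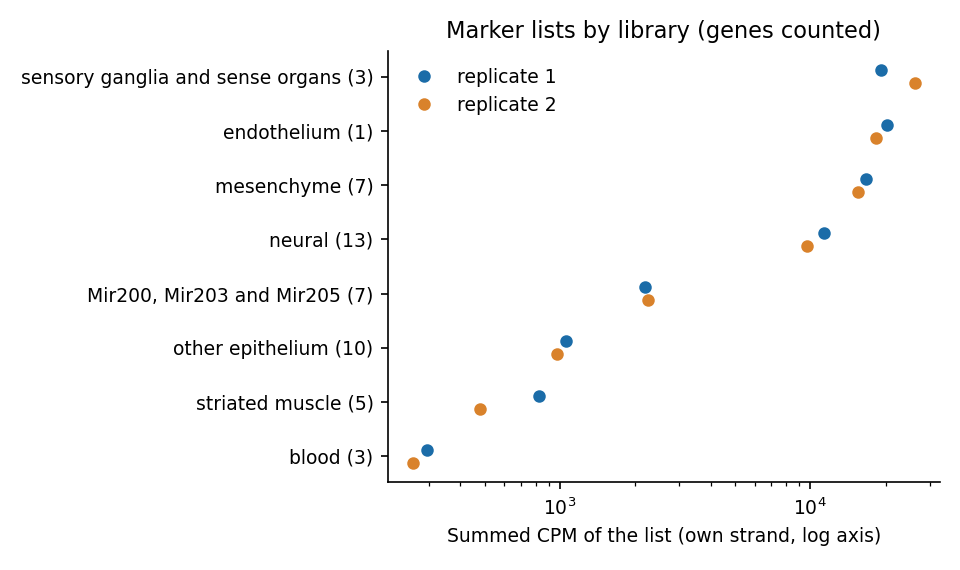
Summed CPM (log axis) of each marker list in replicate 1 (blue) and replicate 2 (orange), with the number of genes counted in brackets. The 7 genes, at 2194 and 2254 CPM, lie below the sensory, endothelial, mesenchymal and neural lists and above the other epithelial, muscle and blood lists.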

How the data were processed

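Small-RNA libraries (size range under 30, per the labels) of 2 neural tube pools were compared. Read counts per miRNA gene, in whole numbers, were deposited by the authors for both strands, the own strand and the opposite strand, made on mm10 with annotation M4, per the file descriptions deposited beside them. For the aligner, the counter and the trimming, names and versions were not given in the sources used here. Rows naming no gene were left out of totals: reads mapping to several places were 27.0% of reads in replicate 1 and 28.6% in replicate 2. A gene count holds both arms of its hairpin, so strands could not be told apart.

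CPM used own-strand gene reads, and a count of 0 (3 counts) allows 0.625 CPM in replicate 1 and 0.678 CPM in replicate 2. Symbols came from GENCODE M21, where 5 of the 7 identifiers kept the same version. With 1 group, edgeR's quasi-likelihood test had no contrast. Libraries were compared by an exact binomial test at an adjusted p of 0.05, with edgeR 4.0.16 (TMM, common dispersion) and DESeq2 1.42.0 (size factors) in R 4.3.3. The test was checked on data simulated with counting error only, so the check does not cover spread between replicates. Python 3.11.15, scipy 1.17.1 and matplotlib 3.10.9 were used. Named genes are the 7, the 2 nearest genes to each on level, and up to 3 leading genes of each marker list. Mir31, Mir184, Mir192, Mir194-1, Mir194-2, Mir215, the Mir124a genes and the Mir133a genes were named after their values were seen. Members and lists were chosen with earlier results of these data known. Mir9-1, Mir142 and Mir1a-2 matched no counted symbol and were not analysed here.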

Additional observations from a re-analysis of the deposited data

Results flagged for a closer look

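The opposite-strand column, which enters no level above, held reads at the place of Mir203: 74 in replicate 1 and 55 in replicate 2. Both exceed the 3 counts that a count of 0 allows. They were 1.51% (exact binomial 95% interval 1.19 to 1.90) and 1.03% (0.775 to 1.34) of the reads at this gene. Over all counted genes together, the opposite strand held 1.72% of gene reads in replicate 1 and 1.48% in replicate 2. The median share per detected gene was 0% in both libraries. Of 371 detected genes, 9 had over 3 opposite-strand reads in both libraries, and 4 had a higher share than Mir203 in both. Mir200a, Mir200b, Mir200c and Mir429 had 0 such reads in both libraries, which at Mir429 allows a share of up to 0.159% in replicate 1 and 0.217% in replicate 2. At Mir200a, with fewer reads, it allows up to 1.62% and 1.27%, so Mir200a cannot be told apart from Mir203 in this. Mir205 had 1 in replicate 1 and Mir141 had 1 in replicate 2. RefSeq places the miRNA gene Gm51289 (synonym Mir203b) opposite Mir203 at chr12:112130887-112130946, and its strands are shown because they pair with those of Mir203.
miR-203b-5p: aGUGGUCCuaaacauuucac
miR-203b-3p: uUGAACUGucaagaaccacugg
With the seed in capitals, miR-203b-5p is complementary to miR-203-3p over 20 of its 20 bases. Whether the opposite-strand reads come from these mature strands was not tested, since the counts hold no read positions.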

How the results depend on the processing

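When the denominator also held reads mapping to several places, the share of the 7 genes was 0.134% in place of 0.222%, and the CPM of each gene was lower in the same way, by construction. Leaving out 1 replicate gave shares of 0.219% to 0.225%, ratios of the chromosome 4 to the chromosome 6 cluster of 2.98 to 3.34, and ratios of the AAUACUG to the AACACUG class of 7.14 to 9.61. The both-strand column moved these by less than their spread (0.220%, 3.16 and 8.36). No setting left out Mir429, on which the cluster ratio rests. The number of genes past the test between libraries was 5 with DESeq2 size factors, with library totals and with both strands. It was 4 without a low-count filter, where Mir141 no longer passed, and 4 with at least 100 reads in both libraries, where Mir141 was not tested. All 7 genes had at least 1 read in both libraries and 6 had at least 100. No sign of a log2 ratio changed under any of these settings. Depth limits Mir141 most, with 131 and 82 reads.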

Other observations

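A further list of 10 epithelial genes outside the 7 held 1054 CPM in replicate 1 and 969 CPM in replicate 2, and the 7 genes exceeded it by 2.20 ± 0.173 times (SD, n = 2). Of the 10, 7 were detected and none was at 0. Mir34c, known from ciliated epithelia, led with 423 and 467 CPM, close to the 493 and 471 CPM of Mir205. Mir375, known from endocrine and secretory cells, had 362 and 218 CPM, and Mir449a, also of ciliated epithelia, 105 and 124 CPM. Mir192 averaged 62.7 ± 4.41 CPM and Mir194-2 46.4 ± 2.97 CPM, both known from intestine and liver. Mir31 averaged 30.7 ± 3.73 CPM (SD, n = 2), and Mir184, known from the cornea, had 10 and 4 reads. Mir215 had 3 and 6 reads. Mir194-1 had 1 uniquely assigned read in each library, within the 3 counts that a count of 0 allows, and reads mapping to several places are not counted.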
